A study of Mus musculus with 96 samples.

Results

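The regions described here were those bound by GATA6 in which a motif scan found no GATA6, SOX17 or ESRRB motif, and either no OCT:SOX composite motif or only a low-scoring one. By this rule, 1009 of the 42403 GATA6 binding regions were taken (2.38%), and they are called motif-poor regions below. The rule used the 4 motif classes deposited with each region and no binding value. Of the motif-poor regions, 606 had no match to any of the 4 motifs, and they are called motif-free. The other 403 held an OCT:SOX match of low score, between 5.17 and 9.97 with a median of 6.80, so the absence of every scanned motif held for the 606 only. For comparison served 3342 regions that lacked a GATA6 motif but held another scanned motif, and the 38052 regions with a GATA6 motif. At the limit of the rule, the 20 motif-poor regions with the highest OCT:SOX scores (9.60 to 9.97) had a median GATA6 signal of 1.65 RPM at 8 h, and the 20 regions left out just above the limit (10.1 to 10.4) had 1.09 RPM.

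Binding of GATA6, SOX17, OCT4, SOX2 and ESRRB was measured by ChIP-seq (sequencing of the DNA fragments that an antibody pulls down with its target protein), and input chromatin was sequenced beside it. The cells were mouse KH2 embryonic stem (ES) cells of mixed C57BL/6 and 129/Sv background in which doxycycline (Dox, 1 µg/mL) switches on a Gata6-3xHA transgene, in 2 clones named G6.1 and G6.3, harvested without Dox (before induction) or 8 h, 16 h and 1, 2 or 4 days into treatment. XEN cells of the line X10 (strain CD1), which are stem cells of the extra-embryonic endoderm, served as the reference of the primitive endoderm (PrE). At day 2, GATA6 and SOX17 were also profiled in clone G6.3 after 48 h of control siRNA or of siRNA against Oct4. ES cells and XEN cells grew on feeder fibroblasts, which were left to adhere to plastic and removed before fixation, and LIF was given to the ES cells only. GATA6 comes in these cells from the transgene as well as from the endogenous gene, all ES values rest on clones of a single parental line, and XEN cells differ from ES cells in strain and medium, so line and state cannot be told apart. Of 96 libraries in 47 conditions, 45 conditions had a column of values. Each column pools the libraries of its condition, of which there was 1 for GATA6 before induction and for OCT4 in XEN cells, 3 for GATA6 at day 4 and 2 for GATA6 at 8 h and in XEN cells. By its label, the third GATA6 library at day 4 carries the number of replicate 1, so these 3 stand for 2 replicate numbers. No replicate spread or test can therefore be given. The comparisons are counts, medians and Wilson 95% intervals over regions, which cover counting error only.

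GATA factors are zinc finger proteins that recognise the short core GATA, and GATA6 can engage its sites in closed chromatin and drives the PrE fate in the early embryo. A motif scan scores each position of a region against a weight matrix, so that a weak or short site can fall under the threshold, and a wide region offers more positions for a chance match.

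Sequence around the GATA6 summit, the base of highest GATA6 signal, shows what such regions look like. From the named regions, whose values are given further on, 8 were taken, and the window of 100 bases on each side of the summit is printed 5′ to 3′ on the plus strand of mm10, from the RefSeq sequence of GRCm38. Capitals mark GATA and its reverse complement TATC, and where both overlap they read GATATC. Each region is named by the gene with the nearest transcription start. The first was bound by 8 h, the second peaked at 16 h and day 1, and the third, a promoter, was highest in late cells. The fourth is a promoter with no core. The fifth gained SOX17. The sixth was among the 3 largest rises in GATA6 from 8 h to day 4, and the seventh showed the largest fall. The last lies in a PrE gene.
Ccdc57 (chr11:120853813-120854013, plus strand): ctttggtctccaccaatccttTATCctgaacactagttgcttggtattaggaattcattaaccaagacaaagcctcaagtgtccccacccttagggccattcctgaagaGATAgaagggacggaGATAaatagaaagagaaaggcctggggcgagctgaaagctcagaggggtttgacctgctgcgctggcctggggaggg
C330011M18Rik (chr8:84073460-84073660, plus strand): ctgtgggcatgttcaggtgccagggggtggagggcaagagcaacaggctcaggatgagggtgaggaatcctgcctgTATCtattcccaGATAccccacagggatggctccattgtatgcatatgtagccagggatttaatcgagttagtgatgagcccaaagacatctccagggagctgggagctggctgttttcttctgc
Tmem256 (chr11:69838135-69838335, plus strand): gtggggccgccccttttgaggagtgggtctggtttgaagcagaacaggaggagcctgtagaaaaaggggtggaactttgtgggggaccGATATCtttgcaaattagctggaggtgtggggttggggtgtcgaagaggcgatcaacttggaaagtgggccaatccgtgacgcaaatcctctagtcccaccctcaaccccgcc
Tle4 (chr19:14598291-14598491, plus strand): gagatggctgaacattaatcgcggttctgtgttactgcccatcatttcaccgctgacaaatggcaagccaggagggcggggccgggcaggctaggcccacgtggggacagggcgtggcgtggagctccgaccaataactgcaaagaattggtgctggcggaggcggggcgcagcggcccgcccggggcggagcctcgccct
Fam120a (chr13:48962558-48962758, plus strand): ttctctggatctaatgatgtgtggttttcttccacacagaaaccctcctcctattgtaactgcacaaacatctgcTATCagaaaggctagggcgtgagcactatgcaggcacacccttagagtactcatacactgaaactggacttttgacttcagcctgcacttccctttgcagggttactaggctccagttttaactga
Cyth3 (chr5:143632707-143632907, plus strand): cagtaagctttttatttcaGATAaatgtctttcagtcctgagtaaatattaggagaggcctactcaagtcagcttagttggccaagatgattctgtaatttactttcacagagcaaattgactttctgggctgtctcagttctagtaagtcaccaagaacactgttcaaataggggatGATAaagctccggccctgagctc
Gm38034 (chr3:52339169-52339369, plus strand): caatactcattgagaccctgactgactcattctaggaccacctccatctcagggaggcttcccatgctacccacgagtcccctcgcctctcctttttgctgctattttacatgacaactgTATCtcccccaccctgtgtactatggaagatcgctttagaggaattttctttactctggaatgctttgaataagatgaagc
Col4a1 (chr8:11269159-11269359, plus strand): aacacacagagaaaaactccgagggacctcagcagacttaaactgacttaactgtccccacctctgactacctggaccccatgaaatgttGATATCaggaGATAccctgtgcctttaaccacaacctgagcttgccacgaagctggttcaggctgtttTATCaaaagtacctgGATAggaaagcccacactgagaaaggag

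The Ccdc57 window held 3 cores, one of them within AGATAA, a longer form of the GATA site, although the scan recorded no GATA6 motif there. The Cyth3 window also held AGATAA, with the core nearest to the summit 79.5 bases away. The Col4a1 window held 5 cores, the nearest centred 1.5 bases from the summit. No core stood in the Tle4 window, whose GC content was 65.7% and which held 17 CpG dinucleotides and 3 GC boxes (GGGCGG).

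Across the motif-poor regions, the GATA core was less frequent than over all regions and close in share to that at other regions without a GATA6 motif. GATA or TATC stood within 100 bases of the summit in 792 of 1009 motif-poor regions (78.5%, 95% interval 75.9 to 80.9), against 92.9% of all 42403 regions in windows of the same length. At motif-free regions the share was 76.4%, and at regions with another motif but no GATA6 motif it was 77.5%. AGATAA or TTATCT was found in 90 motif-poor regions (8.92%, 95% interval 7.31 to 10.8), against 9.96% of the other regions without a GATA6 motif and 54.3% of all regions. A low share of both sequences is favoured by the choice of regions without a GATA6 motif, and how often so short a core falls in such a window by chance was not tested. No core was found in 217 windows (21.5%), 1 core in 378 (37.5%), 2 in 229 (22.7%) and 3 or more in 185 (18.3%). Where a core was present, the nearest one was centred a median of 22.5 bases from the summit, and 17.5 bases at regions with a GATA6 motif. In the promoter state, 68.9% of motif-poor windows and 83.4% of other windows held a core, and outside it 81.7% and 93.9%.

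The motif-free regions were richer in G and C. Their median GC content was 51.2%, against 46.8% at motif-poor regions with a weak OCT:SOX match and 45.3% at regions with a GATA6 motif. A choice of regions without GATA6, SOX17 and OCT:SOX motifs, which hold many A and T, may favour this direction. Its part in the GC content, the GC boxes and the promoter shares below was not tested. The GC box, GGGCGG or CCGCCC, which binds SP and KLF factors, stood in 24.1% of motif-free windows (95% interval 20.9 to 27.7), in 7.94% of windows with a weak OCT:SOX match (5.68 to 11.0) and in 5.93% of windows with a GATA6 motif. The short ETS sequence CCGGAAG or CTTCCGG stood in 4.46% of motif-free windows and 1.29% of all windows, and the E-box CACGTG in 5.94% and 2.64%. For the NRF1 sequence GCGCATGC or GCATGCGC, the shares were 1.32% and 0.321%, and for the CRE TGACGTCA 0.66% and 0.292%, which rest on 8 and 4 motif-free regions. Over all motif-poor windows, these shares were 3.47% (ETS), 5.65% (E-box), 1.09% (NRF1) and 0.396% (CRE). Outside the promoter state, ETS stood in 1.19% of motif-poor and 0.909% of other windows, and the E-box in 4.37% and 2.30%. The GC box stood there in 7.95% of motif-poor and 4.68% of other windows. Of the 178 motif-poor windows with a GC box, 118 were in the promoter state. The NF-Y sequence CCAAT or ATTGG was as frequent at motif-poor regions (21.4%) as over all (22.1%), and GGAATG or CATTCC of TEAD factors was close too (19.7% and 18.8%). FOX (TGTTTAC or GTAAACA) stood in 8.23% against 6.16%, AP-1 (TGANTCA) in 13.4% against 10.7%, and the partial CTCF sequence CCANNAGGG or CCCTNNTGG in 3.87% against 3.56%. The partial SOX sequence ACAAAG or CTTTGT stood in 22.3% of motif-poor windows and 29.0% of all, a direction that the choice of regions without SOX17 motif favours. These letters were searched on both strands, the palindromic ones once. A match is a description of the sequence and not of binding.

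**Figure D1:**
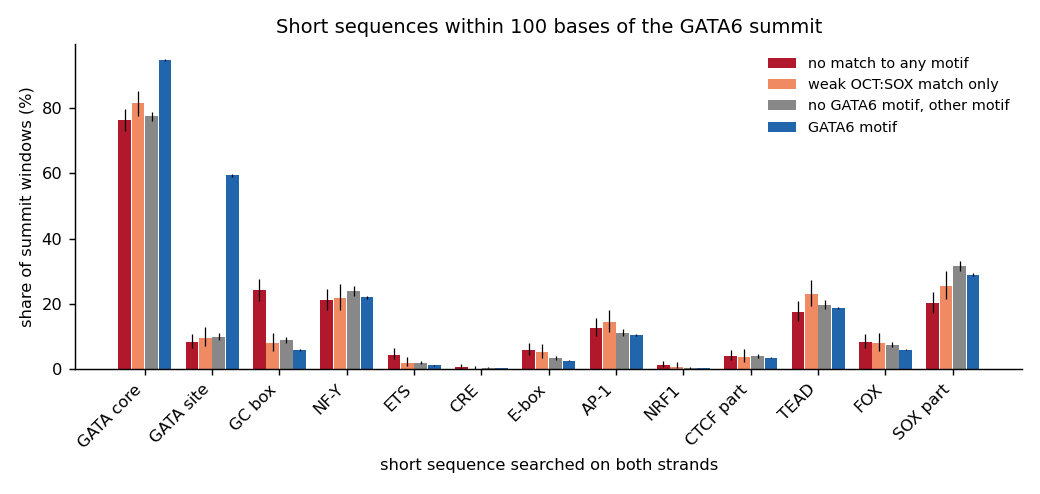
Share of summit windows (%) holding each of 13 short sequences on either strand, for motif-free regions, motif-poor regions with a weak OCT:SOX match, regions with another motif but no GATA6 motif, and regions with a GATA6 motif. Bars show shares and error lines the Wilson 95% interval over regions. The GC box stands out at motif-free regions (24.1%), and the GATA site AGATAA at regions with a GATA6 motif (59.4%), while the bare GATA core was in at least 76.4% of windows in every set.

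A larger share of motif-poor regions than of all regions lay at gene starts, although most lay farther away, at a median distance of 4426 bases against 8796. The summit was within 200 bases of an annotated transcription start in 164 of them (16.3%, 95% interval 14.1 to 18.7) and in 4.56% of all regions. At motif-free regions this was 133 of 606 (21.9%), at those with a weak OCT:SOX match 31 of 403 (7.69%). Outside the promoter state it was 4.11% of motif-poor and 2.31% of other regions. The median distance to the nearest start was 2824.5 bases at motif-free regions, 7080 at regions with a weak OCT:SOX match and 8938 at regions with a GATA6 motif. They also had near neighbours more often: 45.7% of motif-poor regions lay within 5000 bases of another GATA6 region, against 36.6% of all regions. Neighbouring regions may not be independent of each other.

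By the chromatin of undifferentiated ES cells, the same tilt appeared. The promoter state, a class of histone marks in ES cells, held 254 motif-poor regions (25.2%, 95% interval 22.6 to 27.9), against 6.88% of all regions. The share was 34.0% at motif-free regions (30.3 to 37.9), 11.9% at those with a weak OCT:SOX match (9.10 to 15.4) and 10.5% at regions with another motif but no GATA6 motif. How far the choice by motif favours promoters was not tested. Poised enhancers were the second largest state, with 228 motif-poor regions (22.6%) against 14.6% of all. The class named naive held 50 motif-poor regions (4.96%) against 18% of all, and facultative heterochromatin 171 (16.9%) against 22.3%. Active enhancers differed little, with 116 motif-poor regions (11.5%) against 11.2% of all. Within the promoter state, 46.5% of 254 motif-poor windows held a GC box, compared with 27.9% of the 2664 other promoter regions, and the median CpG observed-to-expected ratio was 0.705 and 0.494. Of the motif-poor promoter regions, 133 (52.4%) had their summit within 200 bases of a start, against 32.9% of the other promoter regions.

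Accessibility before induction, a class of ATAC-seq signal, was accessible at 240 motif-poor regions (23.8%, 95% interval 21.3 to 26.5), moderate at 342 (33.9%) and closed at 427 (42.3%). Over all regions these shares were 7.43%, 31.2% and 61.3%. Accessible were 29.5% of motif-free regions and 19.8% of regions with another motif but no GATA6 motif. The promoter state accounted for 166 of the 240 accessible motif-poor regions. Accessible or moderate regions together made up 57.7% of motif-poor regions and 38.7% of all, but also 58.7% of the regions with another motif and no GATA6 motif. Outside the promoter state they made up 43.8% of motif-poor and 34.1% of other regions, and within it 98.8% and 98.6%. In overall openness, motif-poor regions thus stood close to the other regions that lack a GATA6 motif.

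**Figure D2:**
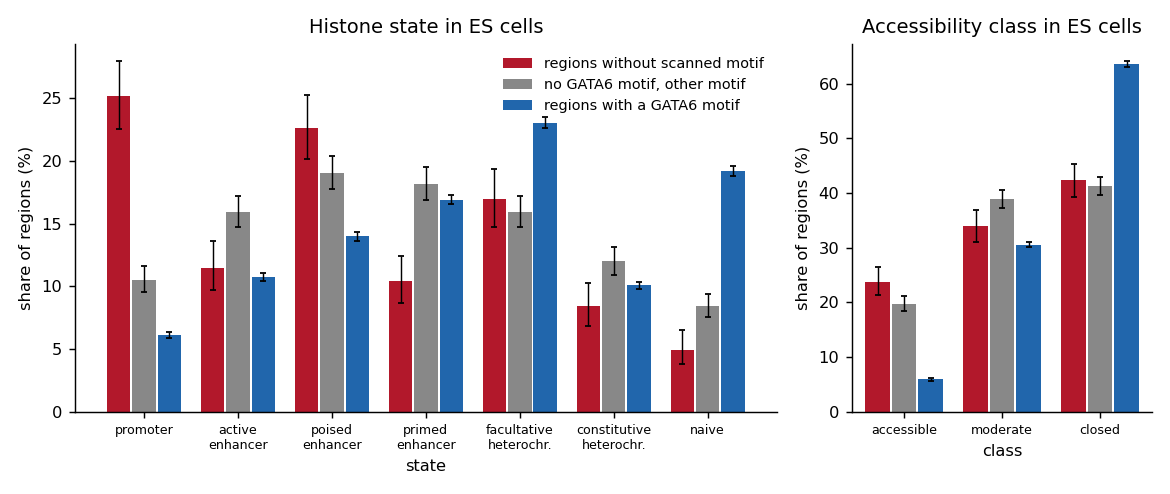
Share of regions (%) in each histone state (left) and each accessibility class (right) of undifferentiated ES cells, for motif-poor regions, regions with another motif but no GATA6 motif and regions with a GATA6 motif; error bars are Wilson 95% intervals over regions. The promoter state held 25.2% of motif-poor regions, the largest share of their 7 states, and the naive state held 4.96%.

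Motif-poor regions were narrow, with a median width of 320 bases (297 at motif-free regions), against 524 bases over all regions. A narrow region offers the scan fewer positions, and RPM is a sum over the whole region, so width differs together with every level below. Levels are therefore also given within 10 classes of equal numbers of regions by width (deciles). The narrowest decile, 171 to 282 bases, held 355 motif-poor regions, and the widest none. The ninth held only 8, and values without it are given for each share. Within deciles, the median over the 9 deciles with motif-poor regions is given for ratios and the mean over them for shares. The promoter state kept its excess, at 33.4% against 6.04% of other regions (29.8% and 5.76% without the ninth decile), and was more frequent at motif-poor regions in 9 of 9 deciles. So did accessible or moderate chromatin, at 69.3% against 36.2% (65.4% and 34.9% without it), also in 9 of 9.

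GATA6 binding at motif-poor regions came late. Their median GATA6 signal, in RPM (reads in a region scaled to library size), started from 0.327 before induction. It was then 0.629 (8 h), 0.810 (16 h), 0.824 (day 1), 0.771 (day 2) and 1.01 (day 4), with 1.33 in XEN cells. The other 41394 regions had medians of 0.490, 1.53, 1.51, 1.30, 1.14, 1.31 and 1.35 RPM. At the other regions the median was thus highest at 8 h within the time course, and at motif-poor regions at day 4. The ratio of medians, motif-poor to other, was lowest at 8 h (0.412), was 0.771 at day 4 and reached 0.988 in XEN cells.

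Within deciles of width the same course showed on another level. The ratio was 0.795 at 8 h (0.850 without the ninth decile) and under 1 in 9 of 9 deciles, and 1.02 at 16 h, over 1 in 7 of 9. Later ratios were 1.20 (day 1), 1.28 (day 2) and 1.47 (day 4), with 1.49 in XEN cells, over 1 in 9 of 9 deciles at each. These medians weigh each decile alike. The narrowest decile and the next held the most motif-poor regions (355 and 215), and their ratios lay nearer to 1. They were 0.947 and 0.928 at 8 h, 1.22 and 1.20 at day 4, and 1.28 and 1.30 in XEN cells. The pooled ratio of 0.771 at day 4 and the ratio within deciles thus pointed in opposite directions, while at 8 h both were under 1. Outside the promoter state, in the 6 deciles with at least 20 such motif-poor regions, the ratio was 0.793 at 8 h, 1.18 at day 4 (over 1 in 6 of 6) and 1.16 in XEN cells (over 1 in 4 of 6). Within the promoter state, in 5 such deciles, it was 0.754 at 8 h, 1.07 at day 4 (4 of 5) and 1.40 in XEN cells (5 of 5).

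**Figure D3:**
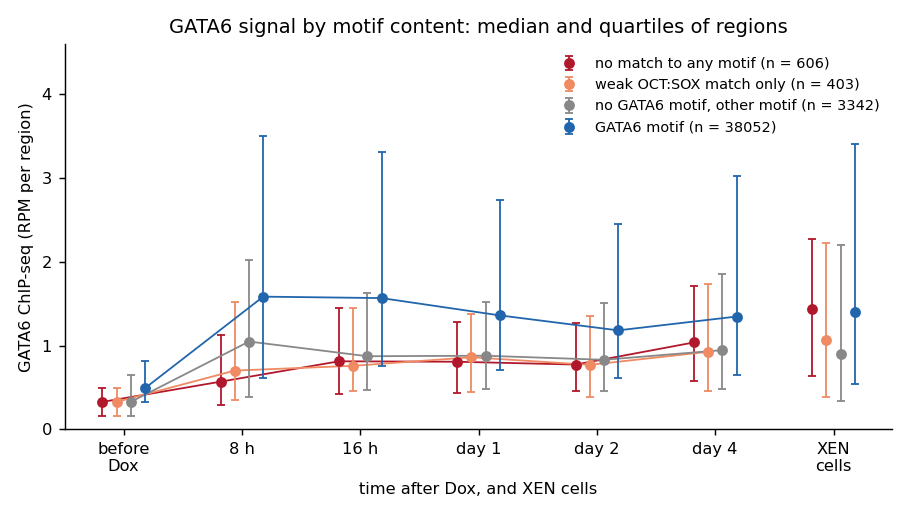
GATA6 ChIP-seq signal (RPM per region) before Dox, at 5 times after it and in XEN cells, for motif-free regions, motif-poor regions with a weak OCT:SOX match, regions with another motif but no GATA6 motif and regions with a GATA6 motif. Points are medians over regions and bars run from the lower to the upper quartile of regions, not over replicates. At 8 h the medians were 0.569, 0.701, 1.05 and 1.58 RPM, and in XEN cells 1.44, 1.07, 0.902 and 1.40 RPM.

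**Figure D4:**
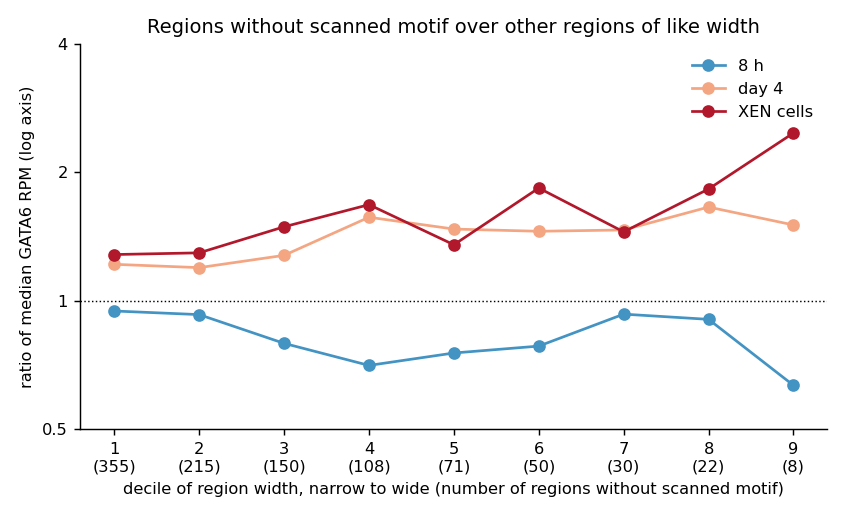
Ratio of the median GATA6 signal of motif-poor regions to that of other regions (log axis) in each decile of region width, at 8 h, at day 4 and in XEN cells, with the number of motif-poor regions under each decile. All 9 ratios at 8 h lie under 1 and all 9 at day 4 and in XEN cells over 1. The ninth decile holds 8 motif-poor regions, and the tenth, with none, is not drawn.

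Against input chromatin, GATA6 before induction was at background, with a median ratio to input of 0.923 at motif-poor regions and 0.956 at the others. This ratio was 1.95 at 8 h against 4.02 at the others, 2.47 at day 4 against 2.97, and 2.55 in XEN cells against 2.81. At least 2-fold over input stood 49.2% of motif-poor regions at 8 h, 62.6% at day 4 and 60.0% in XEN cells, and 71.5%, 68.0% and 61.3% of the others. The GATA6 column before induction rests on 1 library, whose values are multiples of a step of 0.163 RPM. A total of 311 motif-poor regions (30.8%) stood at that lowest value and the median one at 2 steps, so that fold changes from this column are coarse.

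A change of 2-fold on the log2(RPM + pseudocount) scale, with a pseudocount of 0.193 RPM for GATA6, is called below with no test. From before induction to 8 h, 60.4% of all regions were at least 2-fold higher in GATA6, and 347 motif-poor regions (34.4%, 95% interval 31.5 to 37.4). Lower were 1.8% of all regions and 40 motif-poor regions (3.96%). Restricted to regions with at least 0.5 RPM in 1 of the 2 columns, 53.6% of motif-poor and 74.1% of all regions were higher. From 8 h to day 4, 30.9% of all regions were higher and 34.8% lower. Of the motif-poor regions 403 were higher (39.9%, 95% interval 37.0 to 43.0) and 189 lower (18.7%, 16.4 to 21.3), with a median difference of 0.70 against -0.02 over all regions. With a pseudocount 10 times larger the order of the higher calls turned, to 4.86% of motif-poor and 11.1% of all regions. At motif-free regions 43.2% were higher and 14.2% lower, and at those with a weak OCT:SOX match 35.0% and 25.6%. Motif-poor promoter regions were higher in 45.3% and lower in 11.4%, other promoter regions in 26.1% and 22.5%. From day 4 to XEN cells, 14.4% of all regions were higher and 11.7% lower, against 18.6% and 8.33% of motif-poor regions. Input itself was at least 2-fold higher at day 4 than before induction at 1.08% of all regions and lower at 0.79%, and at 4 and 5 motif-poor regions. In XEN cells input was higher at 4.19% of all regions and lower at 1.27%, against 63 (6.24%) and 5 motif-poor regions. Among promoter regions it was higher in XEN cells at 13.8% of the motif-poor ones and 6.94% of the others, and its part in the XEN levels of promoters was not tested.

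By the sample of highest GATA6 after induction, 467 motif-poor regions (46.3%, 95% interval 43.2 to 49.4) were highest in XEN cells, against 31.9% of all regions. At 8 h, 159 (15.8%) were highest, against 31.2% of all. The highest value itself had a median of 1.90 RPM at motif-poor regions and 3.13 RPM over all, and 213 motif-poor regions (21.1%) reached the latter. The strongest motif-poor region had 14.0 RPM and the strongest of all regions 94.0 RPM.

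The deposited classes of GATA6 dynamics gave 562 motif-poor regions as Late (55.7%, 95% interval 52.6 to 58.7), 373 as Transient (37.0%, 34.0 to 40.0) and 74 as Early&Constant (7.33%, 5.88 to 9.11). Over all regions these were 33.6%, 38.4% and 28.0%, and the Late share at regions with another motif but no GATA6 motif was 43.1%. The Late share was higher at motif-poor regions within single histone states too: 48.4% of motif-poor promoter regions were Late against 24.8% of all promoter regions, and 37.9% of motif-poor active enhancers against 10.1% of all active enhancers. In facultative heterochromatin 77.8% of motif-poor regions were Late (51.6% of all), and in the naive state 42 of 50 (41.0% of all). Within deciles of width the mean Late share was 42.4% at motif-poor and 36.1% at other regions (44.5% and 38.5% without the ninth decile), higher in 8 of 9. This mean weighs each decile alike. In the narrowest decile, with 355 motif-poor regions, the shares were 68.7% and 61.9%, and in the next, with 215, 54.9% and 51.5%. The Early&Constant share within deciles was 18.5% against 24.0%, higher in 1 of 9, and 13.1% against 20.9% without the ninth decile, higher in 0 of 8.

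Fewer motif-poor regions carried SOX17, the endoderm factor that follows GATA6, in the pooled counts. They were classed as SOX17-bound in 317 cases (31.4%, 95% interval 28.6 to 34.3), against 44.5% of all regions. Within deciles of width, however, the share was 45.5% against 40.8% of other regions, higher in 6 of 9 deciles. Without the ninth decile it was 40.2% against 38.0%, higher in 5 of 8. The lower pooled share thus did not hold in most deciles of width. Within the Late class 36.5% of motif-poor regions were SOX17-bound against 53.4% of all Late regions, and within the Transient class 18% against 16.2%. The median SOX17 signal at motif-poor regions was 0.413 RPM before induction, then 0.608 (day 1), 0.710 (day 2) and 0.851 (day 4), with 0.794 in XEN cells. The other regions had 0.550, 0.896, 0.948, 1.10 and 0.849 RPM. Within deciles of width the day 4 ratio of medians was 1.49, over 1 in 9 of 9 deciles, opposite in direction to the pooled medians. From before induction to day 4, 44.5% of all regions were at least 2-fold higher in SOX17 and 8.72% lower, against 406 (40.2%) and 57 (5.65%) motif-poor regions.

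Pluripotency factors (PTFs), OCT4, SOX2 and ESRRB, were bound before induction at 98 motif-poor regions (9.71%, 95% interval 8.04 to 11.7) and at 20.8% of all. At motif-free regions this was 4.95%, and at those with a weak OCT:SOX match 16.9%. Within deciles of width the mean share was 18.1% against 17.0% of other regions (15.7% and 14.4% without the ninth decile). It was higher at motif-poor regions in 4 of 9 deciles (4 of 8 without the ninth), so the direction differed between deciles. Another 116 motif-poor regions (11.5%) gained PTFs only after induction, against 16.6% of all. OCT4 from before induction to day 4 was at least 2-fold higher at 21.0% of all regions and lower at 19.4%, against 16.9% and 10.2% of motif-poor regions. SOX2 was higher at 24.0% of all regions and lower at 24.1%, against 20.1% and 14.0% of motif-poor regions. ESRRB, a nuclear receptor of the naive pluripotent state, was lower at 25.2% of all regions and at 157 motif-poor regions (15.6%), and higher at 0.248% and at 2 motif-poor regions. These are bulk samples, in which fewer cells with a bound site and less binding per cell cannot be told apart.

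Oct4 knockdown at day 2 moved GATA6 little at these regions. GATA6 with Oct4 siRNA was at least 2-fold higher than with control siRNA at 7.77% of all regions and lower at 5.28%, against 77 (7.63%) and 40 (3.96%) motif-poor regions. The median difference on the log2 scale was 0.10 at motif-poor regions and -0.00 over all. SOX17 was higher at 20.8% of all regions and lower at 0.441%, against 151 (15.0%) and 6 (0.595%) motif-poor regions, with median differences of 0.45 and 0.52. The SOX17 median was thus higher over all regions as well, and whether the whole column shifted was not tested. Input of the siRNA cells was not analysed. Within the siRNA columns, motif-poor regions had a median GATA6 of 0.806 RPM with control siRNA and 0.941 RPM with Oct4 siRNA, and the other regions 1.67 and 1.72 RPM.

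Single regions show courses behind these medians. They were taken by rank (the 3 highest or most changed in each of 8 sets) and by proximity to genes of a pluripotency and a PrE list, which gave 24 regions. Those ranks were the choice, so the values describe the regions and test nothing. Of the 24, 14 held a weak OCT:SOX match, 9 were in the promoter state and 6 had no GATA core within 100 bases of the summit.

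Among regions bound early, the one at chr11:120853550-120854339, in an intron of Ccdc57, had the highest GATA6 at 8 h of all motif-poor regions. It went from 0.327 RPM before induction to 7.63 (8 h), and was then 5.56 (16 h), 4.63 (day 1), 4.06 (day 2) and 4.89 (day 4), with 2.41 in XEN cells. It was an active enhancer bound by PTFs before induction, with SOX2 at 4.11 RPM there. In the noncoding exon of Kif23 (chr9:61945799-61946683), a kinesin of the central spindle in cell division, GATA6 was 0.653 RPM before induction and 7.15 (8 h), 8.69 (16 h) and 6.72 (day 4) after it. It thus stayed high through the course, in a promoter 541 bases downstream of the start. An intronic region of Foxo1, a forkhead factor of insulin signalling, lay 57028 bases downstream of the start of the RNA gene Gm38034 (chr3:52338955-52339569). GATA6 there went from 0.490 RPM before induction to 7.56 (8 h), then 5.09 (16 h), 1.67 (day 1), 1.05 (day 2) and 0.742 (day 4). This was the largest fall from 8 h to day 4 among motif-poor regions, by 3.05 on the log2 scale, and SOX2 was 3.81 RPM before induction and 0.565 RPM at day 4. The other 2 largest falls were in an intron of Pstpip1, a cytoskeletal adaptor (3.75 RPM at 8 h, 0.308 at day 4), and in an intron of Zmiz1, a transcriptional co-regulator (1.99 and 0.0979 RPM).

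Other regions peaked between 16 h and day 1. In an intron of Rfx1, a winged-helix transcription factor (chr8:84073317-84074132, nearest start that of C330011M18Rik), GATA6 was 0.817 RPM before induction and 1.54 (8 h), 8.80 (16 h), 7.34 (day 1), 4.67 (day 2) and 3.81 (day 4) after it, with 1.18 in XEN cells. SOX17 there was 1.65 RPM before induction, 2.95 at 16 h, 12.5 at day 1 and 6.44 at day 4, and OCT4 was 2.99 RPM before induction, 10.4 at day 1 and 11.5 at day 4. Input was 1.18 RPM before induction, 2.0 at day 1 and 1.22 at day 4. All of GATA6, SOX17 and OCT4 were thus higher at day 1 than before induction at this region, where the scan found only a weak OCT:SOX match, and input was higher at day 1 as well. At an intronic region of Slc25a36, a mitochondrial nucleotide carrier, GATA6 was 3.25 RPM at 8 h, 5.75 at day 1 and 3.61 at day 4, and the window held no GATA core.

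The 3 regions highest at day 4 and the 3 highest in XEN cells were all in the promoter state. Tmem256 (chr11:69837945-69838599, summit 279 bases upstream of the start) had GATA6 at 0.490 RPM before induction and 2.12 (8 h), 3.12 (16 h), 4.91 (day 1), 6.44 (day 2) and 7.91 (day 4) after it, with 8.01 in XEN cells. Its input was 1.55 RPM before induction, 2.49 at day 4 and 3.98 in XEN cells, so input moved in the same direction. At Phf23, which encodes a PHD finger protein, GATA6 was 1.96 RPM before induction, 1.66 at 8 h and 7.02 at day 4. Input at Phf23 was 1.42 RPM before induction and 2.43 at day 4. At an intronic region of Gm17705, 543 bases upstream of the start of Prrc2a, GATA6 was 2.70 RPM at 8 h, 6.93 at day 4 and 10.4 in XEN cells. OCT4 at this region was already at 8.52 RPM before induction, and input was 1.32 RPM before induction, 2.01 at day 4 and 2.96 in XEN cells. The highest XEN value was at Pcgf1, a Polycomb subunit, with 14.0 RPM of GATA6 against 5.60 at day 4, at an input of 3.49 RPM in XEN cells. Lpxn, a focal adhesion adaptor, followed with 11.0 RPM and Tle4, a Groucho family corepressor, with 10.6 RPM. Input at Lpxn was 1.32 RPM before induction and 2.99 RPM in XEN cells. Tle4 also had the highest OCT4 before induction among motif-poor regions, at 9.84 RPM, and its window, printed above, held no GATA core. Its input in XEN cells was 4.17 RPM against 1.73 before induction. At Amdhd2, an enzyme of amino sugar metabolism, OCT4 was 6.84 RPM before induction and 0.941 at day 4, while GATA6 did not exceed 2.24 RPM, its value in XEN cells.

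The 3 largest rises in GATA6 from 8 h to day 4 were at regions closed in ES cells. In an intron of Hunk, a protein kinase (chr16:90415071-90415526), GATA6 was 0.163 RPM before induction and 0.232 (8 h), 0.407 (16 h), 0.516 (day 1), 0.918 (day 2) and 4.94 (day 4) after it, but 1.02 in XEN cells. This was the largest rise, by 3.59 on the log2 scale, and SOX17 at day 4 was 3.21 RPM against 0.284 before induction. Upstream of Me2, the mitochondrial malic enzyme, GATA6 was 0.653 RPM before induction, 0.268 at 8 h, 5.07 at day 4 and 6.28 in XEN cells. In an intron of Cyth3, an exchange factor for ARF proteins (chr5:143632489-143633224), it was 0.817 RPM before induction, 0.217 at 8 h and 0.797 at day 2. GATA6 there was then 4.0 RPM at day 4 and 9.85 in XEN cells. At Me2 and Cyth3 the value before induction, from 1 library, was thus above that at 8 h. All 3 regions were classed as bound by SOX17 and without PTF binding. Input at the 3 regions at day 4 was 0.481, 0.594 and 0.933 RPM, below GATA6 in each.

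The strongest SOX17 at day 4 was upstream of Srgn (chr10:62527355-62527775), which encodes the proteoglycan serglycin. SOX17 there was 0.492 RPM before induction and 0.410 (8 h), 1.15 (16 h), 5.10 (day 1), 9.77 (day 2) and 14.9 (day 4) after it, with 6.18 in XEN cells. OCT4 followed the same order, at 0.741 RPM before induction, 3.09 at day 1, 5.93 at day 2 and 16.2 at day 4, and was 0.933 in XEN cells, where it rests on 1 library. GATA6 was 0.370 RPM at 8 h and 3.47 RPM at day 4, and input 0.378 before induction and 0.933 at day 4. In an intron of Fam120a, an RNA-binding protein, SOX17 was 1.16 RPM before induction and 10.3 at day 4, and downstream of Smad7, an inhibitor of TGF-beta signalling, 1.06 and 9.54 RPM. ESRRB at the Smad7 region was 4.87 RPM before induction, 7.52 at day 2 and 0.918 at day 4.

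**Figure D5:**
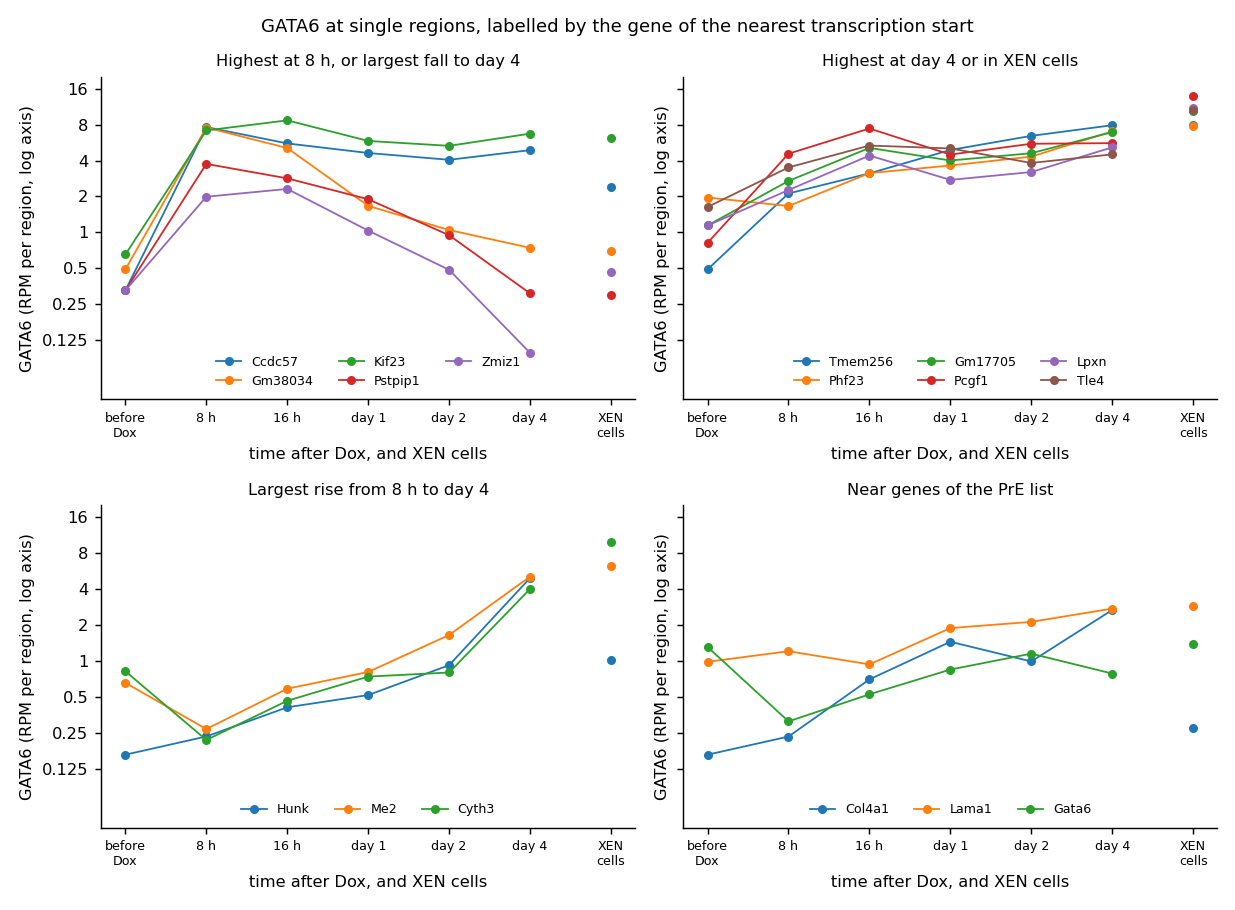
GATA6 signal (RPM per region, log axis) at single motif-poor regions before Dox, at 5 times after it and in XEN cells. Panels hold the regions highest at 8 h or with the largest falls, those highest at day 4 or in XEN cells, those with the largest rises, and 3 of those nearest to a gene of the PrE list. Each line is a region and each point a pooled column with no replicate error. Zmiz1 was at 0.0979 RPM at day 4, and Pcgf1 was highest in XEN cells at 14.0 RPM.

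Regions were assigned to the gene of the nearest start within 50 kb. No motif-poor region fell to the 25 genes of the pluripotency list, to which 100 of all regions fell. To the 25 genes of the PrE list fell 4 motif-poor regions, of 155 regions in all. Motif-poor regions were 2.38% of all regions, so few could fall to either list. Counts this low were not told apart from that share, and the lists were not compared. In an intron of Col4a1, a collagen of the basement membrane (chr8:11269115-11269455), GATA6 was 0.163 RPM before induction and 0.232 (8 h), 0.698 (16 h), 1.44 (day 1), 0.986 (day 2) and 2.66 (day 4) after it, with 0.271 in XEN cells. This region was closed in ES cells, and its GATA6 was higher at day 4 than in XEN cells. The Lama1 region, 126 bases upstream of the start of this laminin gene, was an accessible promoter with GATA6 at 1.20 RPM at 8 h, 2.74 at day 4 and 2.85 in XEN cells. The region in Gata6 itself, 55 bases downstream of a start and in coding sequence, had 1.31 RPM before induction, 0.310 at 8 h, 0.781 at day 4 and 1.37 in XEN cells. Input at this region was 0.724 RPM before induction, 0.389 at 8 h, 1.30 at day 4 and 0.981 in XEN cells. At day 2, GATA6 there was 1.15 RPM and input 0.276 RPM. GATA6 thus stood below input at 8 h, 16 h, day 1 and day 4, and above it before induction, at day 2 and in XEN cells. The transgene carries Gata6 coding sequence, and its part in the reads counted there was not tested.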

How the data were processed

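ChIP-seq and input values were taken from a single table of 42403 GATA6 binding regions deposited by the authors. They trimmed reads with cutadapt, aligned them to mm10 with bowtie2, kept those with mapping quality above 30, removed duplicates by molecular identifiers and called peaks with MACS2. Deposited values are reads per region scaled to library size (RPM), with replicates of a condition pooled by the authors. Motif scores deposited by the authors are FIMO scores of the best match, with classes. The classes of GATA6, SOX17, PTF, accessibility and histone state are also theirs. A column holding their DESeq2 outcome for Oct4 knockdown was not used, nor were 14 per-sample columns of 105 (accessibility and histone marks). Input of the siRNA cells was not analysed here (4 libraries).

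Medians, ratios, shares with Wilson 95% intervals and differences of log2(RPM + pseudocount) were computed, the pseudocount being percentile 5 of an assay's values. The depth of each library is not given in the table. No column holds 0, so a read may have been added to each value or 0 replaced, and no read and 1 read may share the lowest value. The GATA6 column before induction is whole multiples of its lowest value within 0.001 in 100% of low values. Sequences came from GRCm38 and gene starts from GENCODE M21 (distance from the summit). GATA or TATC was found in 82.5% of deposited GATA6 motif positions. Named regions were the 3 highest in GATA6 at 8 h, day 1, day 4 and in XEN cells, in SOX17 at day 4 and in OCT4 before induction, the 3 largest rises and falls from 8 h to day 4, and all within 50 kb of listed genes, of which 1 is not reported here. Members, lists and rules were chosen with earlier results of these data known. Scripts were tested on simulated data and used Python 3.11.15, numpy 2.4.6, pandas 2.3.3, scipy 1.17.1, matplotlib 3.10.9 and pysam 0.24.0. Alternatives were strictly motif-free regions, regions of high signal, regions outside promoters, width deciles, means, signal per kb or minus input, other pseudocounts and other windows. Each chromosome was also left out in turn.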

Additional observations from a re-analysis of the deposited data

How the results depend on the processing

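Of 113 alternative values, 79 stayed within the interval or within 1.5-fold of the value reported. These 79 include every value with 1 chromosome left out, which removes few regions and could hardly move a result. A total of 28 values moved further and 6 changed direction. The ratio of median GATA6 at day 4 (0.771) turned over 1 per kb (1.19) and within width deciles (1.47). In XEN cells the ratio (0.988) turned over 1 at motif-free regions (1.07), at regions of high signal (1.12), per kb (1.57) and within deciles (1.49), and was 0.562 from means. At 8 h it was 0.245 minus input and 0.795 within deciles. At regions whose highest GATA6 reached the median of all, the shares were 28.6% Transient, 71.8% accessible or moderate, 39.0% promoter, 51.6% SOX17-bound and 14.1% bound by PTFs before induction, against 30.8%, 45.1%, 9.17%, 61.8% and 30.7% of all regions so chosen. Strictly motif-free regions gave 63.9% open, 34.0% promoter, 4.95% PTF and 59.1% Late. Width deciles gave 69.3% open, 33.4% promoter, 45.5% SOX17, 18.1% PTF and 42.4% Late. Outside promoters 43.8% were open and 81.7% held a GATA core, which was 84.0% over the whole region and 8.92% as AGATAA. With a pseudocount 10 times larger, the 2-fold calls were 3.77% (GATA6 at 8 h, higher), 1.68% and 4.86% (day 4 against 8 h, lower and higher) and 6.94% (SOX17), against 26.4%, 14.5%, 11.1% and 19.2% of all regions. For day 4 higher than 8 h the order against all regions thus turned. Relative to the median change over all regions, 4.76% were higher at 8 h and 16.8% in SOX17, against 22.4% and 25.6% of all regions. With a minimum of 0.5 RPM, 53.6% were higher at 8 h, against 74.1% of all. The alternatives for Late, for the XEN ratio and for regions above the lowest value before induction were added after seeing the data. The promoter share outside promoters is 0 by construction and was not run. No paired analysis was possible because replicates share a column. For the same reason no replicate could be left out. The coarse step of the column before induction limits every fold change from it, and the causes of the differences above were not tested.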

Other observations

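OCT4 in XEN cells, which rests on 1 library, held a value chosen here after it was seen. At chr12:25266762-25267014, intergenic and 15734 bases from the nearest start, that of Gm19340, OCT4 was 46.5 RPM in XEN cells, the second highest of all regions, against 1.03 RPM before induction and 0.121 at day 4. SOX2 in XEN cells was 19.6 RPM there, while GATA6 was 0.168 RPM, SOX17 0.241 RPM and input 0.363 RPM in the same cells. At Amdhd2, OCT4 was 12.8 RPM in XEN cells, 9.70 RPM at 8 h and 10.3 RPM at 16 h, but 0.878 RPM at day 1, with SOX2 at 1.32 RPM in XEN cells. These values are given without an explanation.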
